A study of Mus musculus with 12 samples.

Results

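Mature B cells of mice that lack Bak1 but keep Bax were compared with the same cells of young wild-type mice. The comparison takes 6 of the 12 libraries of the study, chosen by their labels alone. The 3 Bak1-deficient libraries are labelled apoptosis-sensitive, with the genotype Bak-/- Baxfl/fl at 10 weeks of age. The 3 control libraries are labelled GroupB, with the genotype WT at 9, 10 and 11 weeks. All mice were on the C57BL/6 background, and the cells were sorted from bone marrow as B220high IgM+ CD93-, a gate for recirculating mature B cells. Poly(A) RNA libraries were made with the TruSeq RNA v2 kit, and the deposited values are read counts per gene. The other 6 libraries serve only as levels for reference. They are 3 Bak-/- BaxD/D libraries (labelled apoptosis-resistant, 10 weeks), in which Bax was deleted as well, and 3 WT libraries of 98, 99 and 100 weeks (GroupA).

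The 2 groups differ in more than the absence of BAK. The Bak1-deficient mice also carried floxed Bax alleles, which the controls did not. Their cells were collected on 30 May, 31 May and 7 May 2016 (replicates 1, 2 and 3), whereas the young wild-type cells were collected on days labelled 24 March 2006, 11 April 2016 and 12 April 2016. No date is shared between the groups, so genotype and collection date cannot be told apart, and no fit can separate them. The 3 resistant libraries carry the dates of the 3 sensitive ones and the same Bak1 genotype, and therefore do not separate them either. Neither the part of Bak1 that the null allele lacks nor the Cre driver behind the deletion of Bax in the reference libraries is given in the sources used here. The series' design text calls the libraries of a group biological replicates.

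BAK and BAX are the effectors of mitochondrial apoptosis. Held in check by BCL-2, MCL-1 and their relatives, and released or activated by BH3-only proteins such as BIM and NOXA, they oligomerise in the mitochondrial outer membrane and let cytochrome c escape to the apoptosome. Either effector alone can carry out this step in most cells, so that mature B cells without BAK but with BAX are still able to die by this route, while those lacking both accumulate.

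The 6 libraries held between 13474162 and 23539764 assigned reads, and 13592 of the 27179 genes in the table passed the filter on low counts. Young replicate 1, together with old replicate 1 of the same date (24 March 2006), stood apart on the first principal component (73.7 and 75.9, against -24.4 to 2.4 for the 10 other libraries). The correlation of log CPM across genes was 0.9884 between sensitive replicates 1 and 2 and 0.983 between young replicates 2 and 3. Between the groups it reached 0.9923 (sensitive 1 with young 3) and 0.9928 (sensitive 2 with young 2), above every pair within a group. B cell markers were high: Pax5 ran from 206.1 to 331.3 CPM, Cd79a from 1155 to 2031 CPM and Ighm from 5152 to 9590 CPM over the 6 libraries. Summed markers of other cells were not absent: those of T cells came to 37.1 to 75.3 CPM and those of granulocytes to 807 and 838 CPM in 2 of the 6 libraries. CPM here are read counts scaled to a common library total, with TMM (trimmed mean of M values) factors.

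Bak1 itself (chromosome 17, 27019812 to 27028627, GRCm38) was measured at 9.64, 12.5 and 6.17 CPM in the 3 Bak1-deficient libraries and at 31.7, 40.8 and 47.9 CPM in the 3 young wild-type ones. The groups did not overlap. Residual reads remained in every Bak1-deficient library, 9.43 ± 3.15 against 40.1 ± 8.10 CPM (SD, n = 3), a log2 fold change of -2.09 ± 0.34 (SE). The reference libraries followed the genotype, with 6.98 to 14.4 CPM in the resistant and 24.7 to 45.4 CPM in the old wild-type cells. DESeq2 called Bak1 (adjusted p 5.33e-06, and 7.72e-08 to 0.00144 over its 9 settings), whereas edgeR's quasi-likelihood test with Benjamini-Hochberg adjustment over all genes did not (adjusted p 0.135, and 0.0566 to 0.685 over 15 other settings).

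Bax (chromosome 7, 45461695 to 45466903), whose floxed alleles are intact in these cells, was measured at 55.7, 56.3 and 100.1 CPM in the Bak1-deficient libraries and at 98.6, 54.0 and 48.7 CPM in the young wild-type ones. Each group held 1 high library (Bak1-deficient replicate 3, young replicate 1) and 2 at 48.7 to 56.3 CPM, and the groups overlapped. Bax differed by 0.08 ± 0.36 on the log2 scale (95% interval -0.70 to 0.85, edgeR adjusted p 0.956). The resistant libraries, where the gene is deleted, held 4.97 to 8.36 CPM.

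**Figure D1:**
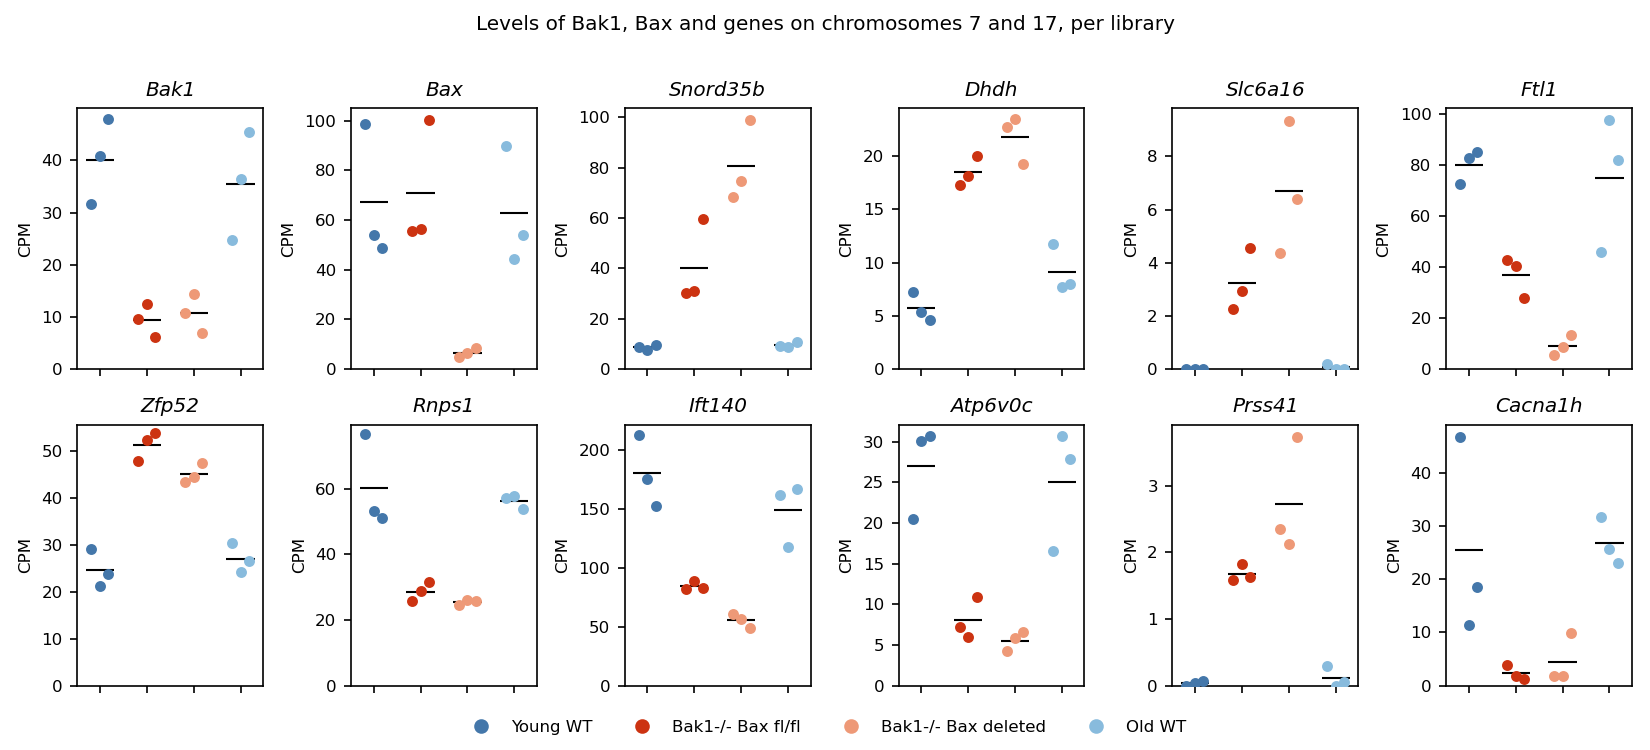
CPM of 12 genes in each library of the 4 groups (points, in replicate order from left to right; bars are group means; linear axes from 0). Bak1 is low in both Bak1-deficient groups, Bax only in the Bax-deleted one, and the 3 Bak1-deficient Bax-intact libraries lie apart from the 3 young wild-type ones for each panel but that of Bax. That separation was a condition for naming most of these genes.

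Across all genes, edgeR called none of 13592 at an adjusted p under 0.05 (0%), the lowest value being 0.0533 for Snord35b, and 371 genes had an unadjusted p under 0.05 (2.73%), 140 higher and 231 lower in the Bak1-deficient cells. DESeq2 called 14 of 13555 genes (0.103%), 7 in each direction. Those 14 are Bak1, 3 genes beside Bax on chromosome 7, 7 genes within 10 Mb of Bak1 on chromosome 17, 2 genes elsewhere, and 1 gene without a symbol or a position in the annotation. In 621 genes all 3 Bak1-deficient libraries lay above all 3 young ones (4.57%), and in 577 all lay below (4.25%), 1198 in all (8.81%). When all 6 Bak1-deficient libraries were set against all 6 wild-type ones, which is also a split by date, 120 genes did not overlap (0.883%). The median log2 fold change was -0.01 and the median SE 0.31. For 7157 genes (52.7%) the 95% interval lay within 2-fold in either direction.

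The genes that separated the groups best lay next to Bax. The largest difference by p was that of Snord35b (chromosome 7, 45123025 to 45123111), a box C/D small nucleolar RNA of the kind that guides methylation of ribosomal RNA, which lies 0.34 Mb from Bax. Its 87 bases are shown from the GENCODE M21 transcript of GRCm38, since the RNA is far shorter than an ordinary poly(A) transcript, with the 2 copies of the box D letters CTGA in capitals.
Snord35b: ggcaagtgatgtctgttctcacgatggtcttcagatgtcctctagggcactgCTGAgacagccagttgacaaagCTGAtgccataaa
Snord35b was counted at 30.2, 31.1 and 59.5 CPM in the Bak1-deficient libraries and at 8.79, 7.54 and 9.43 CPM in the young ones, from 2338 and 426 reads in all. Every Bak1-deficient library lay above every wild-type library, resistant (68.3 to 99.0 CPM) and old (8.80 to 10.8 CPM) included. The log2 fold change was 2.23 ± 0.28 (edgeR adjusted p 0.0533, DESeq2 adjusted p 7.36e-10). It passed edgeR's threshold in 4 of 15 other settings (adjusted p 0.00601 to 0.434) and in all 9 DESeq2 settings (2.36e-11 to 8.03e-06). How reads that fall in overlapping genes were assigned is not given in the sources used here.

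Dhdh, which encodes a dihydrodiol dehydrogenase and starts 0.01 Mb from Bax, was measured at 17.3, 18.1 and 19.97 CPM in the Bak1-deficient cells and at 7.23, 5.40 and 4.62 CPM in the young wild-type cells. The spread within each group was small beside the gap (18.5 ± 1.36 against 5.75 ± 1.34 CPM, SD, n = 3), and the log2 fold change was 1.69 ± 0.24 (edgeR adjusted p 0.0885; DESeq2 2.70e-08, and 2.87e-18 to 0.000179 over its settings). Slc6a16, an orphan member of the SLC6 transporter family 0.22 Mb from Bax, was listed at 0 in all 3 young libraries and at 2.26, 2.94 and 4.54 CPM (40, 50 and 97 reads) in the Bak1-deficient ones. Over the groups that is 187 reads against 0, at least 56.3-fold higher with the young total set at the 3 reads that a count of 0 allows. The resistant libraries held 4.35 to 9.33 CPM, and among the old ones replicate 1 had 4 reads and the others 0. DESeq2 called it in all 9 of its settings (8.53e-07 to 0.000698) and edgeR in 1 of 15 (main adjusted p 0.125).

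Other neighbours of Bax lay on the low side in the Bak1-deficient cells. Ftl1 (45457944 to 45459886), the light chain of the iron store ferritin and the gene next to Bax, was measured at 42.6, 40.5 and 27.9 CPM against 72.4, 82.9 and 84.9 CPM, 37.0 ± 7.95 against 80.1 ± 6.73 (SD, n = 3; log2 fold change -1.11 ± 0.33; edgeR adjusted p 0.824; DESeq2 0.647, and 0.0142 to 0.984 over its 9 settings with 1 call). The groups did not overlap, which the rule for naming the gene required. In the resistant cells, which share the 7 May, 30 May and 31 May dates, the level was lower again at 5.52 to 13.2 CPM. Tead2, a transcription factor of the Hippo pathway 0.25 Mb away, was measured at 6.71, 5.53 and 3.27 CPM against 55.0, 11.5 and 17.01 CPM, so that its mean rests in large part on young replicate 1 (log2 fold change -2.42 ± 0.65 with it and -1.44 without it; edgeR adjusted p 0.824; DESeq2 0.066, and 0.0107 to 1 over its 9 settings with 2 calls). Bcat2, the mitochondrial branched-chain aminotransferase, showed 28.8, 28.2 and 31.0 against 87.6, 37.0 and 40.8 CPM, and Fuz, a planar polarity protein of the primary cilium, 24.8, 30.0 and 23.1 against 101.5, 42.6 and 30.0 CPM. In both, the 6 Bak1-deficient libraries lay below the 6 wild-type libraries, for Fuz by a gap under the rounding of these values (29.99 against 30.0), and in both young replicate 1 was the highest of the young cells.

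On chromosome 17, the 7 genes that DESeq2 called besides Bak1 start between 1.65 and 8.45 Mb from it, all on the same side of the gene (smaller coordinates). Rnps1, an RNA-binding protein of the exon junction complex, was measured at 25.7, 28.7 and 31.5 CPM against 76.8, 53.2 and 51.1 CPM (28.6 ± 2.93 against 60.4 ± 14.3, SD, n = 3). Ift140, a subunit of the intraflagellar transport complex of cilia, was at 82.2, 88.6 and 82.5 CPM against 213.0, 175.2 and 152.2 CPM. In both genes the highest Bak1-deficient library was well below the lowest young one, and the log2 fold changes were -1.07 ± 0.18 and -1.09 ± 0.18 (edgeR adjusted p 0.135 and 0.14; DESeq2 4.23e-05 and 4.33e-05, reaching 0.0509 and 0.00837 at the highest over its settings). Cacna1h, a T-type calcium channel subunit, was at 3.89, 1.71 and 1.26 CPM against 46.8, 11.4 and 18.5 CPM. Its young values spread widely, and its log2 fold change was -3.48 ± 0.75, or -2.69 without young replicate 1 (edgeR adjusted p 0.651; DESeq2 0.000337, and 8.31e-06 to 0.0568 over its settings).

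Zfp52, a zinc finger protein gene 5.49 Mb from Bak1, was on the high side: 47.9, 52.5 and 54.0 CPM in the Bak1-deficient cells against 29.3, 21.2 and 23.7 CPM, a log2 fold change of 1.06 ± 0.17 (edgeR adjusted p 0.125; DESeq2 1.91e-06, at most 0.0107 over its settings). The resistant libraries (43.5 to 47.5 CPM) sat with the Bak1-deficient ones and the old libraries (24.3 to 30.4 CPM) with the young ones. Without both libraries dated 24 March 2006, edgeR called it too (adjusted p 0.00928). Its zinc finger neighbours Zfp54 and Zfp229 were at 11.0, 12.8 and 10.4 against 9.37, 6.08 and 5.14 CPM and at 10.6, 12.0 and 8.84 against 7.23, 7.58 and 6.59 CPM, likewise without overlap, also over 6 against 6 libraries. Zinc finger genes of this kind are a large family of similar sequences, and how reads that fit several were counted is not given in the sources used here.

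A pair of genes near Bak1 was counted almost only in 1 of the 2 groups. Vmn2r96, a vomeronasal receptor gene 8.45 Mb away, had 30, 33 and 29 reads in the young cells (2.46, 1.41 and 1.91 CPM) and none in any Bak1-deficient library, at least 34-fold lower with the same allowance of 3 reads for the group. Prss41, a serine protease gene 3.18 Mb away, had 28, 31 and 35 reads in the Bak1-deficient cells (1.58 to 1.82 CPM) and 0, 1 and 1 in the young ones, a ratio of summed CPM-scaled reads of 42.4 (95% interval for counting error 11.4 to 356). Both genes were singled out after their values were seen, both are weak, and DESeq2's adjusted p was 4.27e-05 for Vmn2r96 (called in 9 of its 9 settings) and 0.00246 for Prss41 (called in 7 of 9), with edgeR at 0.161 and 0.158. In the reference libraries Vmn2r96 had 0, 0 and 3 reads in resistant and 53 to 210 in old cells, and Prss41 34 to 78 and 0 to 6. The promoters of Slc6a16, Vmn2r96 and Prss41, the 3 genes at or near 0 in 1 group, are shown from RefSeq (GRCm38.p6), 250 bases before to 50 after the start, 5′ to 3′ on the gene's strand, with matches in capitals to the TATA box (TATAAA), the CCAAT box, the GC box (GGGCGG) or the E-box (CACGTG) on either strand.
Slc6a16, chr7:45240503-45240802, plus strand: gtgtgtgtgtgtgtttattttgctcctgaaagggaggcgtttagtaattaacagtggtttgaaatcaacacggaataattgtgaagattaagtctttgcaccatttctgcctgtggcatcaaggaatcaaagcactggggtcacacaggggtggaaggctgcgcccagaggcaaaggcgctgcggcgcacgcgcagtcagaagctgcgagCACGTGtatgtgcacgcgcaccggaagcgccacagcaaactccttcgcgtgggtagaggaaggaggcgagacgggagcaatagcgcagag
Vmn2r96, chr17:18581477-18581776, plus strand: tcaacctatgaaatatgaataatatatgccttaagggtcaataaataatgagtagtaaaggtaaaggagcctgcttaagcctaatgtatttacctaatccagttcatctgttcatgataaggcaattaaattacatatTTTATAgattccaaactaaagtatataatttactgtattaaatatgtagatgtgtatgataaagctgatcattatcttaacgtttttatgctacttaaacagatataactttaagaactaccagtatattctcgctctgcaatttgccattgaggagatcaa
Prss41, chr17:23844107-23844406, minus strand: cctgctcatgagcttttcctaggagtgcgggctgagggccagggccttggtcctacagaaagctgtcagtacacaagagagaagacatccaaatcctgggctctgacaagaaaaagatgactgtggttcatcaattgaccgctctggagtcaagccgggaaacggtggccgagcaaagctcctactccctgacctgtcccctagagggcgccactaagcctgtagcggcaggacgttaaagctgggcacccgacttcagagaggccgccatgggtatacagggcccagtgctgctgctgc
CACGTG, which occurs in the Slc6a16 window, is held by 7.15% of 32851 RefSeq promoters of this length, and TATAAA, which occurs in that of Vmn2r96, by 13.6%. The Prss41 window holds none of the 4 (CCAAT is held by 37.4% and GGGCGG by 35.7% of promoters). The windows hold 19, 2 and 10 CpG dinucleotides in the order shown, against a median of 7 over all promoters. The start used for Vmn2r96 lies inside the span of the gene in the annotation, which begins at 18573255.

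Ggnbp1 (27018035 to 27036378), which encodes a partner of the testis protein gametogenetin, encloses the whole of Bak1. It was measured at 21.5, 26.6 and 30.1 CPM in the Bak1-deficient libraries and at 28.4, 4.71 and 4.62 CPM in the young ones. Young replicates 2 and 3 thus lay far below, whereas young replicate 1 lay among the Bak1-deficient libraries, and old replicate 1 of its date lay just under them (20.2 CPM, against 4.86 and 7.63 in the other old libraries). The log2 fold change was 1.07 ± 0.66 (edgeR adjusted p 0.824), and 2.50 in edgeR without both libraries of that date (adjusted p 0.00892). The gene was picked out after these values were seen. The kit does not record the strand of a read, so reads of Bak1 and Ggnbp1 where they overlap cannot be told apart.

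Counted over windows around the targeted genes, with Bak1 and Bax themselves left out, the differences were denser near them than elsewhere. Among the 86 genes tested within 2 Mb of Bak1, 8 had an unadjusted edgeR p under 0.05 (9.3%, against 2.73% of all genes) and 1 was called by DESeq2. With the window widened to 10 Mb, and the same drawn around Bax, both chosen after the values were seen, 41 of 389 genes near Bak1 (10.5%) and 14 of 131 near Bax (10.7%) had such a p. Those near Bax lay almost all within 2 Mb of it (13 of 97, 13.4%), and from 2 to 10 Mb away 1 of 34 had such a p (2.94%). Beyond 10 Mb on the same chromosomes the shares were 2.4% of 333 and 2.71% of 884, and over the 12662 genes placed outside both windows 2.32%. The 408 tested genes without a position, which may lie in or out of the windows, had a share of 5.15%. Of the 14 DESeq2 calls, 10 fell among the 520 genes of the 2 windows, 2 among the 12662 placed outside and 1 among the 408 without a position, Bak1 being the last. The 6 Bak1-deficient libraries lay entirely above or below the 6 wild-type ones for 19 of the 389 (4.88%), 12 of the 131 (9.16%), 83 of the 12662 (0.656%) and 5 of the 408 (1.23%). Near Bax the count was 8 of 97 genes within 2 Mb (8.25%) and 4 of 34 from 2 to 10 Mb (11.8%). By this measure the share did not fall beyond 2 Mb, unlike the share by p. Each time edgeR called any gene under another setting, that gene lay within 10 Mb of Bak1 or Bax. The direction was mixed, with 23 higher and 32 lower among the 55 window genes with an unadjusted p under 0.05.

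**Figure D2:**
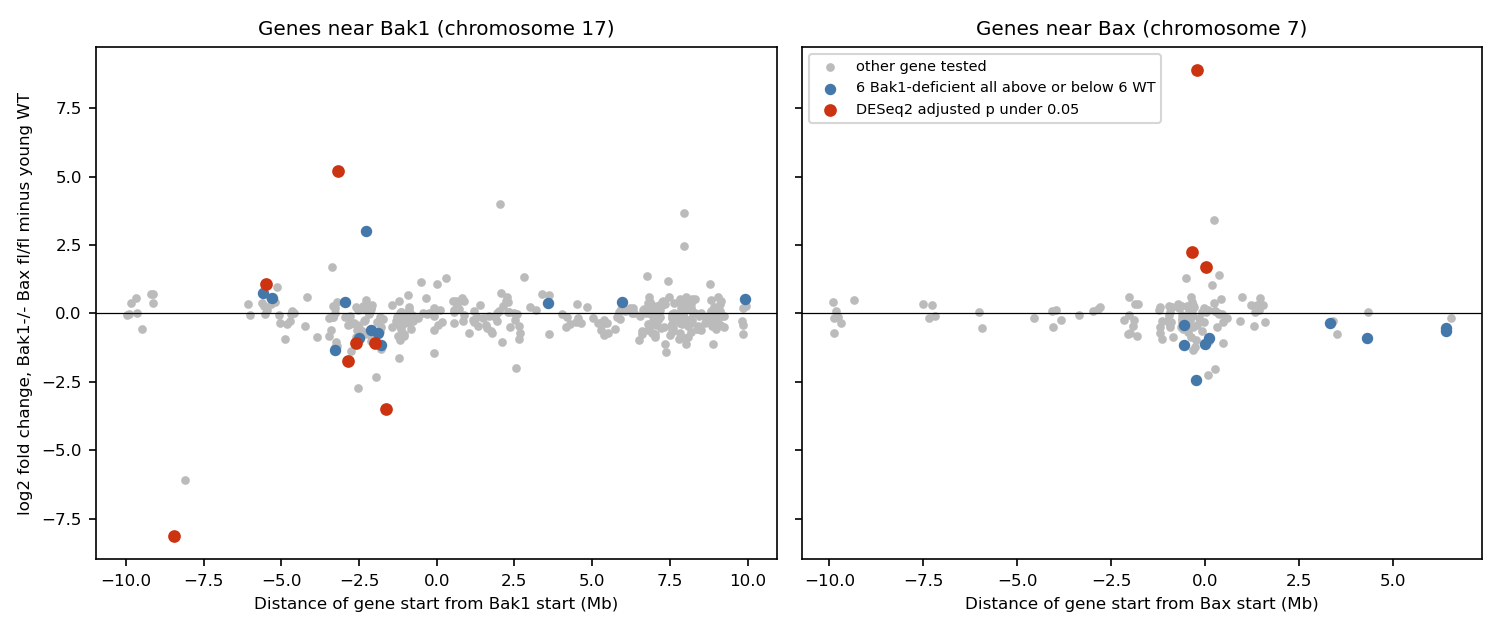
Log2 fold change (Bak1-deficient Bax-intact minus young wild type) against the distance of each tested gene's start from that of Bak1 (left) or Bax (right), in Mb. Red points were called by DESeq2, blue points separate 6 from 6 libraries, and the most extreme points are Slc6a16 and Vmn2r96, whose fitted values are no measure of size because 1 group is at 0.

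In other genes of the same chromosome 17 window the 6 Bak1-deficient libraries also lay below. Clcn7, a lysosomal chloride transporter, was at 70.1, 69.9 and 69.4 against 171.5, 89.1 and 80.2 CPM. Gnptg, a subunit of the enzyme that tags lysosomal proteins, was at 18.2, 17.2 and 16.4 against 59.2, 28.9 and 26.3 CPM. Traf7, a ubiquitin ligase, was at 145.2, 131.7 and 135.2 against 435.0, 166.6 and 159.5 CPM. All 3 share a feature of the group: the Bak1-deficient values are close together and young replicate 1 lies far above its companions. Paqr4, a membrane receptor family member, was at 0.51, 0.88 and 0.70 against 1.56, 1.88 and 1.91 CPM, and there young replicate 1 was not apart (log2 fold change -1.35 ± 0.39, edgeR adjusted p 0.824). Caskin1, a synaptic scaffold gene, was at 0.23, 0.06 and 0.56 against 3.86, 0.69 and 1.45 CPM, but it did not separate 6 from 6 libraries. Its resistant replicate 2 (0.667 CPM) lay above old replicate 3 (0.645 CPM). On the high side, Glo1, the methylglyoxal-detoxifying glyoxalase 3.57 Mb from Bak1, was at 23.5, 24.8 and 28.0 against 13.2, 21.8 and 22.7 CPM, a gap that is narrow beside the spread.

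Some of the genes that separated the 6 Bak1-deficient from the 6 wild-type libraries on other chromosomes are near-identical copies of genes inside the windows. Of the 88 such genes not placed in the windows, 83 had a transcript in GENCODE M21, and 5 of these (6.02%) matched a gene inside the windows at 90% identity or more over at least 50% of their length. Among all 12570 genes not placed in the windows that had a transcript, 18 did (0.143%). Among the 5 are Atp6v0c-ps2 (99.7% identical to Atp6v0c, 2.86 Mb from Bak1), Ftl1-ps2 (97.8% to Ftl1), and Gm11478 and Gm6023 (98.0% and 94.9% to Rpl13a). All 5 were higher in the Bak1-deficient libraries, and all are reported as uncertain, because reads from one copy can be counted to the other.

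Atp6v0c, the proteolipid subunit of the vacuolar proton pump, and its copy on chromosome 6 are the closest pair. Over 465 aligned bases they differ by 1 substitution, T111C, counted from the first base of the Atp6v0c coding sequence (the gene's base first). The stretch from coding position 91 to 131 is shown with that base in capitals.
Atp6v0c: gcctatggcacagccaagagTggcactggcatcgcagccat
Atp6v0c-ps2: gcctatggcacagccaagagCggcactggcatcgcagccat
Atp6v0c was measured at 7.16, 5.94 and 10.9 CPM in the Bak1-deficient cells against 20.5, 30.0 and 30.7 CPM in the young ones (log2 fold change -1.75 ± 0.31; edgeR adjusted p 0.161, DESeq2 9.73e-05, at most 0.0157 over its settings). Atp6v0c-ps2 was at 61.5, 58.2 and 73.8 against 11.2, 25.1 and 28.3 CPM (log2 fold change 1.58 ± 0.43; edgeR adjusted p 0.824, at least 0.0578 over its settings; DESeq2 0.257, called in 2 of its 9 settings at 7.79e-09 and 0.0151). The gene was thus lower and its copy higher, with no overlap in either, which the rule for naming them required. Their sum was 68.6, 64.2 and 84.7 CPM against 31.6, 55.1 and 59.0 CPM. The sum of the pair was thus also higher in each of the 3 Bak1-deficient Bax-intact libraries than in any young one. In resistant replicate 1 it was 58.6 CPM, just under young replicate 3.

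For Ftl1 and its copy on chromosome 10 the sum went the other way. Ftl1-ps2 was at 4.06, 4.76 and 13.3 CPM in the Bak1-deficient cells and at 0.49, 0.81 and 1.19 CPM in the young ones, from 437 and 43 reads (log2 fold change 3.13 ± 0.57; edgeR adjusted p 0.166, DESeq2 4.27e-05, at most 0.00396 over its settings). The 2 sequences differ at 12 of 549 aligned bases. Ftl1 and Ftl1-ps2 together came to 46.6, 45.2 and 41.2 CPM against 72.9, 83.7 and 86.1 CPM, lower in each of the 3 Bak1-deficient Bax-intact libraries than in any young one. Gm11478 was at 1010, 1092 and 1944 CPM against 163.7, 939.8 and 889.1 CPM. It follows the ribosomal protein gene Rpl13a, whose own groups overlapped (log2 fold change -0.01 ± 0.46), and young replicate 1 was its lowest library of the 6, at the level of old replicate 1 of the same date (163.7 CPM).

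**Figure D3:**
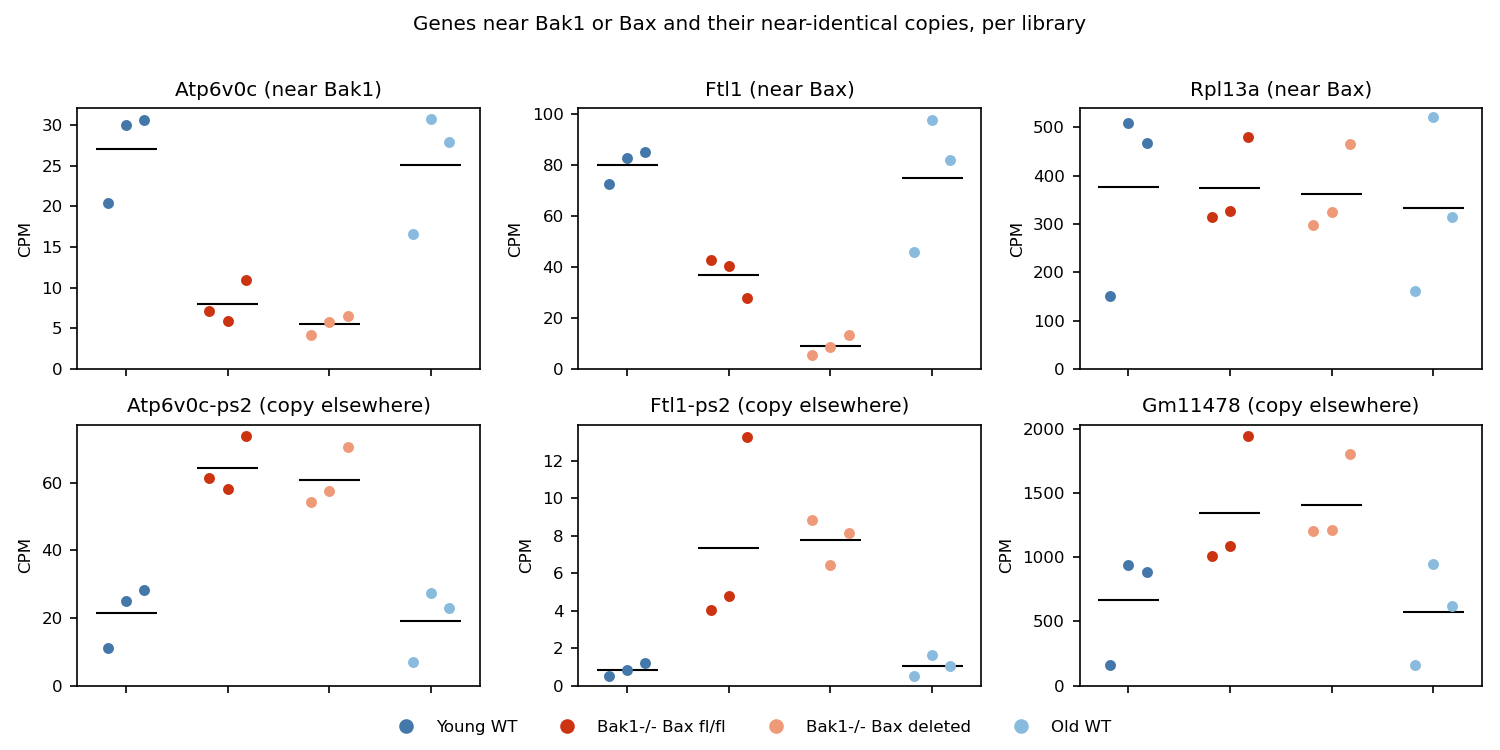
CPM per library (points, replicate order; bars are means) of 3 genes near Bak1 or Bax (top) and their near-identical copies on other chromosomes (bottom). Atp6v0c and Ftl1 are lower and their copies higher in the Bak1-deficient libraries, while Rpl13a overlaps between groups and its copy is higher.

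The remaining DESeq2 calls were Dusp5 on chromosome 19 and 1 gene whose symbol and position the annotation used here does not give (Entrez 433082; 2 reads against 75, a ratio of 0.0241 with a 95% interval for counting error of 0.00286 to 0.0901, edgeR adjusted p 0.158). Dusp5, a nuclear phosphatase that switches off the kinase ERK, was measured at 14.9, 21.5 and 28.4 CPM in the Bak1-deficient cells against 5.59, 8.01 and 7.91 CPM in the young ones. All 3 lay above, at 21.6 ± 6.75 against 7.17 ± 1.37 CPM (SD, n = 3; log2 fold change 1.59 ± 0.35; edgeR adjusted p 0.677, DESeq2 0.0101). The call was made in 4 of the 9 DESeq2 settings (0.00463 to 0.505) and in no edgeR setting (0.228 to 1). The resistant cells, with the same Bak1 genotype and dates, stood at 5.52 to 6.60 CPM, at the level of the wild-type cells.

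The rest of the 20 genes filled in by smallest p, all taken from genes without overlap, did not pass either tool's threshold in the main fits. Rilpl2, a Rab effector-like protein, was at 34.9, 39.6 and 57.6 against 17.7, 22.4 and 29.4 CPM (log2 fold change 0.93 ± 0.27). Hexim1, an inhibitor of the elongation kinase P-TEFb, was at 92.8, 84.7 and 121.8 against 50.3, 63.6 and 77.7 CPM (0.64 ± 0.19), and Tgif1, a repressor of TGF-beta targets, at 82.1, 78.1 and 88.5 against 69.4, 41.8 and 48.6 CPM (0.64 ± 0.19). These 3 separated the 2 groups without overlap, but that was a condition of their choice, and 8.81% of all genes did so. They did not separate 6 from 6 libraries, since the resistant cells lay among the wild-type ones (Tgif1 41.6 to 46.8 CPM). EdgeR's adjusted p was 0.824 for each, and DESeq2 called Tgif1 in 2 of 9 settings, both without young replicate 1 (7.72e-08 to 0.984 over the 9). Tbrg3 was at 0.17, 0.06 and 0.19 against 3.78, 0.43 and 2.64 CPM (log2 fold change -3.93 ± 1.17, edgeR adjusted p 0.824).

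Within the BCL-2 family, Bak1 was the only tested member that either tool called. Of 8 BH3-only genes, 6 were tested (Bik and Hrk were too low), with a median log2 fold change of 0.21 beside -0.01 for all genes. Pmaip1, which encodes the MCL-1 antagonist NOXA, was at 30.6, 26.2 and 106.2 CPM in the Bak1-deficient cells against 32.3, 21.9 and 19.5 CPM, so that its log2 fold change of 1.15 ± 0.48 (edgeR adjusted p 0.824) rests on replicate 3. Bid, cleaved by caspase-8 to activate BAX and BAK, was at 49.0, 52.6 and 56.8 against 42.6, 49.4 and 46.2 CPM, and the interval of its difference was -0.14 to 0.53. Bcl2l11, which encodes BIM, a BH3-only initiator of lymphocyte death, was at 70.3, 67.6 and 45.2 against 59.9, 59.9 and 75.1 CPM, with an interval of -0.57 to 0.40. Bbc3 (PUMA), a p53-induced initiator, was at 4.68, 4.76 and 8.28 against 5.59, 3.77 and 5.01 CPM. For Bid and Bcl2l11 the intervals lie within 2-fold either way.

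The 7 tested anti-apoptotic members had a median of 0.19, and none was called. Mcl1, which holds BAK in check and on which B cells depend, was measured at 1429, 1472 and 1683 CPM against 1410, 1302 and 1259 CPM. Its Bak1-deficient libraries all lay above the young ones, by a margin smaller than the spread within either group (log2 fold change 0.21 ± 0.18, interval -0.19 to 0.60). Bcl2 stood at 202.6, 157.6 and 145.3 against 187.8, 151.5 and 181.5 CPM (-0.04, interval -0.49 to 0.40). Bcl2l1, which encodes BCL-XL, the other keeper of BAK, was at 6.09, 7.12 and 7.67 against 2.88, 5.87 and 9.56 CPM (0.19, interval -0.69 to 1.06). Bcl2a1b, one of the A1 genes, a family of near-identical copies, was at 8.69, 10.2 and 16.97 against 3.45, 9.51 and 9.30 CPM, and Bcl2l2 (BCL-W) at 19.9, 18.5 and 14.8 against 34.3, 19.8 and 19.0 CPM.

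**Figure D4:**
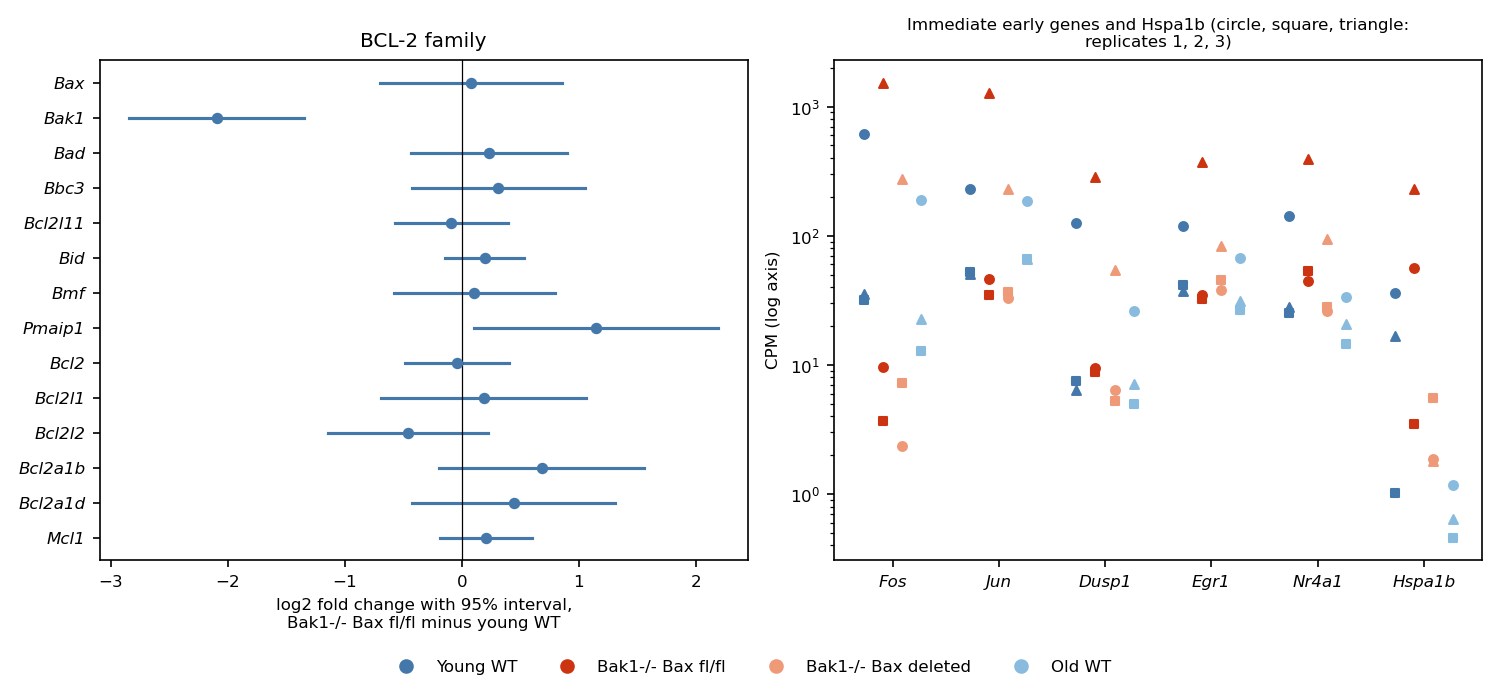
Left: log2 fold change with its 95% interval for members of the BCL-2 family, where only that of Bak1 lies far from 0. Right: CPM on a log axis of 5 immediate early genes and Hspa1b in each library, where sensitive replicate 3 and young replicate 1 stand above their groups.

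The proteins that BAK meets at the mitochondrial outer membrane, and those that act after it, were measured with fair precision. All 18 genes of the outer membrane list were tested, none was called by either tool or had an unadjusted p under 0.05, and for 16 the interval lay within 2-fold (52.7% of all genes). Vdac2, the channel that recruits BAK to the membrane, was at 93.7, 90.9 and 131.4 CPM against 64.9, 91.6 and 88.2 CPM (0.37 ± 0.21, interval -0.08 to 0.82). Its paralogs Vdac3 and Vdac1 had differences of 0.42 ± 0.21 and 0.37 ± 0.23. The mitofusins Mfn1 and Mfn2, which fuse the outer membrane, were at 37.1, 37.5 and 37.8 against 27.4, 39.2 and 37.2 CPM and at 71.6, 66.8 and 64.4 against 62.8, 76.9 and 73.6 CPM. Marchf5, the ubiquitin ligase of that membrane, was at 60.6, 60.1 and 73.2 against 58.7, 59.0 and 62.0 CPM (interval -0.20 to 0.42).

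Downstream, the 16 genes of the apoptosome and caspase list had a median of -0.05, and 13 intervals lay within 2-fold. Cycs, the cytochrome c released through BAX and BAK pores, was at 4.91, 7.35 and 9.59 against 2.79, 5.10 and 4.55 CPM, the smallest p of the list (0.81 ± 0.37, edgeR adjusted p 0.824). Apaf1, the scaffold of the apoptosome, was at 65.8, 72.4 and 55.5 against 63.6, 70.8 and 84.9 CPM, and Casp9, the initiator it activates, at 72.5, 77.4 and 55.1 against 74.3, 73.3 and 79.7 CPM. The executioner Casp6 was at 19.7, 20.5 and 20.6 against 11.8, 17.3 and 17.01 CPM. Xiap, the caspase inhibitor, was at 178.7, 216.6 and 119.6 against 161.1, 186.9 and 237.8 CPM. Groups overlapped for each of these except Casp6.

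The other death and stress lists gave no call by either tool in the main fits. The 10 death receptor genes had a median of 0.11, Mlkl, the effector of necroptosis, being the one with the smallest p (0.79, 0.65 and 1.54 against 0.25, 0.64 and 0.59 CPM). Of 22 tested p53 targets (median 0.11), 1 had an unadjusted p under 0.05, a share near the 2.73% of all genes: Btg2, an antiproliferative gene, at 444.6, 443.6 and 559.1 CPM against 306.3, 328.9 and 370.6 CPM (0.53 ± 0.18, edgeR adjusted p 0.824). Its 6 Bak1-deficient libraries all lay above the 6 wild-type ones (375.6 to 465.4 CPM in resistant, 219.9 to 268.7 in old cells). Cdkn1a, the p21 cell cycle inhibitor, was at 3.16, 4.41 and 6.78 against 3.53, 1.499 and 3.63 CPM. The 19 tested genes of the integrated stress response had a median of 0.22. Among them Eif2ak4, the amino acid sensor GCN2, lay below in all 3 Bak1-deficient libraries (71.7, 62.5 and 58.9 against 109.4, 72.1 and 77.4 CPM), while Atf3 and Cebpb were high in replicate 3 alone (16.6 and 76.4 CPM against at most 0.79 and 19.6 in the other 2).

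Heat shock chaperones, which refold damaged proteins, had mostly positive differences. Of 16 tested genes 14 had a positive difference, the median was 0.68 (all genes -0.01), 7 had an unadjusted edgeR p under 0.05, all higher (2.73% of all genes in either direction), and 6 lay above without overlap (4.57% of all genes), but none passed the adjusted threshold of edgeR or of DESeq2 in the main fits. Leaving out 1 library at a time moved the median between 0.52 (without young replicate 1) and 0.88 (without young replicate 3). Dnajb4, a J-domain co-chaperone, was at 31.4, 23.1 and 49.6 CPM against 17.8, 17.1 and 20.6 CPM (0.91 ± 0.26, edgeR adjusted p 0.824). Hsp90aa1, the inducible HSP90, was at 193.3, 153.2 and 233.2 against 118.1, 83.0 and 140.3 CPM, and the mitochondrial chaperonins Hspd1 and Hspe1 at 128.8, 113.5 and 123.9 against 67.2, 69.6 and 106.4 CPM and at 40.9, 38.3 and 58.9 against 20.4, 33.2 and 31.4 CPM. These 4 separated the groups. In the resistant cells, of the same Bak1 genotype and dates, Dnajb4 was at 18.1 to 21.6 CPM. The summed level of the list was 2950 to 3090 CPM in the resistant cells. It was 4280 to 4560 CPM in the Bak1-deficient Bax-intact cells and 2760 to 3830 CPM in the young ones.

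The strictly inducible HSP70 genes varied far more within the groups. Hspa1b was at 56.7, 3.47 and 230.5 CPM in the Bak1-deficient cells against 35.9, 1.03 and 16.8 CPM in the young ones, and Hspa1a at 8.69, 0.65 and 107.6 against 7.89, 0 and 1.65 CPM. The resistant libraries, of the same dates, held 1.82 to 5.52 CPM of Hspa1b. Both genes lie on chromosome 17 (34956429 to 34959238 and 34969359 to 34972156), within 10 Mb of Bak1. The regulator Hsf1 was at 81.8, 92.3 and 78.7 against 191.0, 84.2 and 82.2 CPM, apart only through young replicate 1.

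Immediate early genes, which are switched on within minutes of a stimulus, set single libraries apart rather than groups. The summed level of the 21 genes was 2330, 2430 and 13900 CPM in the Bak1-deficient cells and 5410, 2630 and 2460 CPM in the young ones. Bak1-deficient replicate 3 (7 May) and young replicate 1 (24 March) were thus the high libraries, and of the reference cells resistant replicate 3, also of 7 May, stood highest at 4940 CPM. Fos was at 9.59, 3.65 and 1532 CPM against 608.3, 31.7 and 35.6 CPM, and Jun at 46.5, 34.7 and 1284 against 228.7, 52.2 and 50.4 CPM. The median log2 fold change of the list was 1.13, but it was -0.46 without Bak1-deficient replicate 3 and 1.95 without young replicate 1, so its sign rests on single libraries. Of the 21, 3 had an unadjusted edgeR p under 0.05, all higher (2.73% of all genes in either direction). Only 1 did not overlap, a lower share than the 8.81% of all genes: Klf6 (182.9, 170.3 and 463.3 against 169.7, 161.8 and 150.8 CPM, 0.76 ± 0.35, edgeR adjusted p 0.824).

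**Figure D5:**
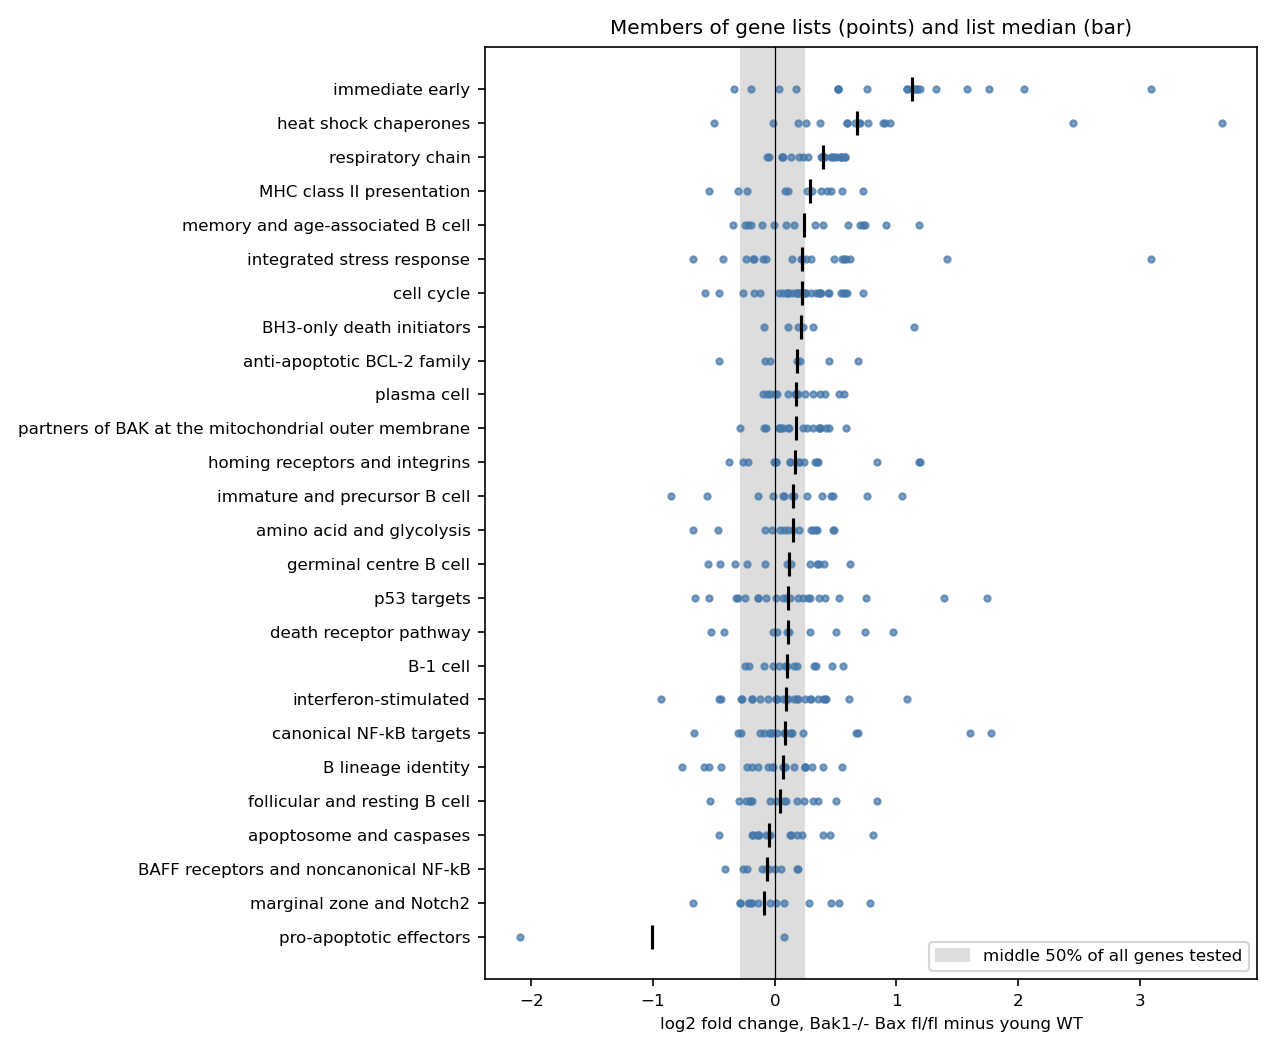
Log2 fold change of each tested member (points) of 26 gene lists and the list median (bars), with the middle 50% of all tested genes in grey (-0.28 to 0.24). Immediate early and heat shock genes have the highest medians, most other medians lie within the grey band, and the list of 2 effectors holds Bak1 at -2.09.

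B cell identity and subset lists showed no called gene in the main fits. The 21 B lineage genes had a median of 0.06 and 14 intervals within 2-fold, with Cd22, a sialic acid-binding brake on the antigen receptor, at 1609, 1627 and 1322 against 3167, 1887 and 1751 CPM, Pou2f2 (the transcription factor OCT2) at 331.4, 364.5 and 234.4 against 429.4, 390.9 and 442.9 CPM and Ikzf3 (Aiolos) at 961.9, 825.5 and 426.6 against 983.5, 1061 and 1171 CPM. These 3 of 21 lay below without overlap (4.25% of all genes), and Ikzf3 and Pou2f2 were lowest in Bak1-deficient replicate 3. In the list of follicular genes (median 0.04), Ccr7, the receptor that draws lymphocytes into lymphoid tissue, was at 317.2, 306.6 and 381.5 against 132.8, 207.3 and 221.0 CPM (0.84 ± 0.33, edgeR adjusted p 0.824), and Fcer2a (CD23) at 1058, 1131 and 819.9 against 1715, 1473 and 1166 CPM. Cxcr4, the receptor that retains B cells in the marrow, was at 454.2, 402.6 and 290.4 against 236.2, 91.3 and 174.8 CPM (1.19 ± 0.44, edgeR adjusted p 0.824). Ccr7 was called by DESeq2 once both libraries of 24 March 2006 were left out, with a smaller log2 fold change of 0.64 (adjusted p 0.00559).

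The receptors for the survival factor BAFF and the noncanonical NF-kB genes were measured closely, with a median of -0.06 and 9 of 10 intervals within 2-fold. Traf3, the brake on that pathway, was at 226.4, 226.1 and 148.9 against 280.9, 255.8 and 260.4 CPM (-0.41 ± 0.21). Canonical NF-kB targets had a median of 0.08, with the activation marker Cd83 at 187.1, 312.3 and 195.3 against 90.1, 173.6 and 172.6 CPM. Marginal zone genes (median -0.09) included Hes1, a Notch target, at 28.2, 30.8 and 64.7 against 20.95, 26.6 and 24.3 CPM. Among memory genes (median 0.24) S100a6 was at 6.03, 10.6 and 7.90 against 2.14, 5.27 and 5.47 CPM and the costimulatory Cd86 at 29.2, 67.0 and 30.8 against 19.1, 32.2 and 25.3 CPM. Median values were 0.10 for B-1, 0.15 for immature, 0.11 for germinal centre, 0.17 for plasma cell, 0.09 for interferon-stimulated and 0.29 for class II presentation genes. Homing receptors stood at 0.17.

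Growth and metabolism lists held no called gene. All 33 cell cycle genes were tested, 28 with a positive difference and none with an unadjusted p under 0.05. The median of 0.22 moved to 0.03 without Bak1-deficient replicate 3 and to 0.47 without young replicate 3. Ccnd3, the D cyclin of B cells, was at 105.0, 119.6 and 102.0 against 73.5, 84.9 and 107.6 CPM. For 23 respiratory chain genes the median was 0.40, falling to 0.15 without young replicate 1, in which the summed level of the list was 1330 CPM against 2430 to 2450 in the other young libraries. Glycolysis and amino acid transport genes had a median of 0.15. Young replicate 1 also stood apart in Slc1a5, a glutamine transporter, at 375.2, 443.3 and 320.3 against 1073, 391.4 and 348.8 CPM.

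Markers of other marrow cells varied within both groups. Summed granulocyte markers (9 of 9 tested) were at 807, 85.4 and 148 CPM in the Bak1-deficient and 108, 29.8 and 838 CPM in the young libraries, with Bak1-deficient replicate 1 and young replicate 3 the high ones. Monocyte markers were at 150, 48.9 and 62.9 CPM in the Bak1-deficient libraries and likewise highest in replicate 3 of the young ones, and erythroid markers at 311, 50.4 and 149 against 32.9, 40.8 and 374 CPM. The sums of T cell markers ran from 42.0 to 47.6 against 37.1 to 75.3 CPM, and those of NK cell markers from 1.71 to 3.04 against 0.685 to 2.70 CPM. The defining T cell gene Cd3e stood at 0 in young replicate 1, although the summed T cell markers were highest there (75.3 CPM). The NK gene Ncr1 stood at 0 in young replicate 3, although the summed NK cell markers were there the highest of the young libraries (2.70 CPM). The part of these cells in the differences above was not tested. In bulk samples, fewer cells of a type and less RNA per cell cannot be told apart.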

How the data were processed

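RNA of sorted marrow B cells was sequenced by the authors, who deposited read counts per gene (Entrez identifiers, 12 libraries in 1 table). Reads were handled with Subread and featureCounts against mm10, per the submitters' processing notes. Versions, annotation, strand setting and the handling of reads that fit several genes are not given in the sources used here. Symbols and coordinates came from RefSeq (25275 of 27179 identifiers matched), sequences from RefSeq and GENCODE M21.

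The 12 libraries were fitted together by group, without covariates, in edgeR 4.0.16 (R 4.3.3) with TMM scaling, filterByExpr by group (minimum count 10), robust glmQLFit and glmQLFTest. The contrast was Bak1-deficient Bax-intact minus young wild type, with 8 residual degrees of freedom and a Benjamini-Hochberg threshold of 0.05. Intervals are 95% intervals of the log2 fold change, and ratio intervals and limits at a count of 0 cover counting error only. DESeq2 1.42.0 was the other test. Both were tested on simulated data. Other scalings, filters, fits and left-out libraries were tried as alternatives. Copies were sought with blastn 2.17.0.

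The named genes are Bak1, Bax and, since no gene passed edgeR's threshold, 20 filled in by smallest p, plus up to 3 per list by smallest p. The 20 were taken only from genes whose 3 Bak1-deficient and 3 young libraries did not overlap. Their separation is therefore a condition of the choice and not a result. Predicted genes, genes without a symbol, immunoglobulin and T cell receptor segments and genes under a mean of 1 CPM were left out. Other genes named were chosen after their values were seen: the remaining DESeq2 calls, genes near Bak1 and Bax, copies, and list members named for their role. The members and lists were chosen with earlier results of these data known. P-values measure the spread between 3 libraries a group. A few genes are not reported here.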

Additional observations from a re-analysis of the deposited data

How the results depend on the processing

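The number of genes called at an adjusted p under 0.05 was 0 in the main edgeR fit, with DESeq2 size factors, upper quartile factors, at least 1 CPM in 3 libraries, only the 6 libraries compared, and without immunoglobulin genes. It was 3 without a filter on low counts (Snord35b, Slc6a16, Dhdh), 1 without robust estimation (Snord35b), 3 without both libraries dated 24 March 2006 (Zfp52, Ggnbp1, Dhdh; 1 of them within 2 Mb of Bak1), and 0 to 1 when 1 library was left out (1, Snord35b, without Bak1-deficient replicate 3). DESeq2 called 14 genes with all libraries, 16 with only the 6 compared, 22 without both libraries of 24 March 2006, and 13, 13 and 13 without Bak1-deficient replicate 1, 2 or 3 and 16, 14 and 11 without young replicate 1, 2 or 3. Within 2 Mb of Bak1 it called 1, 1, 2 and 1 to 2. In the list of effectors it called 1 (Bak1) in each of these settings. It called 1 follicular and 1 homing gene (Ccr7 in both) without both libraries of 24 March 2006, and 1 heat shock gene (Dnajb4) without Bak1-deficient replicate 2. The settings with DESeq2 on fewer libraries and the wider windows were chosen after seeing the data. With the replicate number as a block, edgeR called 1 gene (Snord35b, adjusted p 0.00601) and 954 genes had an unadjusted p under 0.05, against 371 without it. The numbers do not pair the libraries: same-numbered libraries share no date, and their deviations from the group means correlated at -0.01, 0.233 and -0.146. Genes with an unadjusted p under 0.05 ranged from 151 (only the 6 libraries) to 897 (without young replicate 3) over the other edgeR settings, with a count of 170 without young replicate 1. No called value changed its sign in any setting, while the medians of 9 of 26 gene lists, all near 0 except the immediate early list, did so in 37 of 624 values. The cause of these changes was not tested. With 3 libraries a group, the median unadjusted 95% interval was 0.67 to either side on the log2 scale. The adjusted threshold is stricter than such an interval, and in the main fit edgeR did not call Bak1 at a log2 fold change of -2.09. A gene that was not called is therefore not shown to be unchanged.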

Other observations

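Of the 12662 genes placed outside the windows around Bak1 and Bax, 83 separated the 6 Bak1-deficient from the 6 wild-type libraries. That is 0.656%, beside 0.883% of all genes tested. Of the 83, 62 were higher in the Bak1-deficient libraries and 21 lower. None had an edgeR adjusted p under 0.05, and the following were chosen after their values were seen. Plcg1, a phospholipase of antigen receptor signalling, was at 49.7, 50.6 and 36.5 CPM in the Bak1-deficient Bax-intact cells, 38.6 to 47.4 CPM in the resistant, 109.8, 57.9 and 52.3 CPM in the young and 74.99 to 121.6 CPM in the old cells. Ets2, a transcription factor downstream of RAS, was at 50.02, 55.0 and 37.1 CPM against 25.8, 30.3 and 29.9 CPM in young cells, with 31.3 to 41.9 CPM in resistant and 10.5 to 24.8 CPM in old cells. Mthfd2, a mitochondrial folate enzyme, was at 16.8, 15.8 and 17.5 against 6.16, 11.7 and 15.4 CPM. Crem, a cyclic AMP-responsive transcription factor, was at 14.4, 25.8 and 13.9 against 7.31, 12.7 and 12.9 CPM. Tbc1d2, a Rab-inactivating protein, lay below at 3.38, 2.65 and 1.92 against 8.55, 4.67 and 4.09 CPM, as did Ssh3, a cofilin phosphatase, at 47.1, 45.6 and 39.8 against 188.6, 48.6 and 48.3 CPM. In Ssh3 young replicate 1 alone is far from the Bak1-deficient cells, and the gap of the other 2 is about 1 CPM.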
